A study of Caenorhabditis elegans with 2 samples.

Results

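The 10 genes described here carry the insulin, AMP-activated kinase (AMPK) and EGL-4 branches of starvation signalling in Caenorhabditis elegans. The question was where in them the ranked regions from ChIP-seq of ALR-1, a homeodomain transcription factor, lay. They were the insulin pathway genes daf-2, age-1, akt-1, daf-18 and daf-16, the AMPK genes aak-1, aak-2, aakb-1 and aakg-1, and egl-4. They are 10 of 19973 protein-coding genes. They were chosen by their roles and with their signal ranks in these lists already known, and every deposited summit that lay in a gene or up to 1500 bp upstream of its 5′ end was assigned to it. Positions, ranks and replicate matches are therefore descriptions and carry no test. The 10 genes received 69 of the 30000 pooled regions, 69 of the 30000 regions of replicate 1 and 63 of the 30000 of replicate 2. A summit is the middle of a region, and regions had fixed widths of 364 bp (pooled), 344 bp (replicate 1) and 384 bp (replicate 2).

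The study holds 1 group with 2 biological replicates. The animals were whole L1 larvae of strain OP362 (unc-119(tm4063) III; wgIs362), recorded as males and females pooled, 6 hours old, starved after bleaching. All carried an integrated alr-1 transgene with GFP and FLAG at the C terminus of the protein, and an antibody against GFP was used on sonicated chromatin. No untagged, fed or older group was analysed here, so no condition was compared. The larvae were used whole, so the cells from which the signal of a region came cannot be told apart. Each list is ranked by a signal value of the authors, relative to a control, and ranks rather than signals are set side by side across lists. The lowest, median and highest signals were 21.8, 27.8 and 102 in replicate 1. They were 23.3, 29.8 and 102 in replicate 2, and 42.2, 53.3 and 204 in the pooled list. A further list of 182 regions passed an irreproducible discovery rate (IDR) threshold, with a lowest signal of 108, and consists of the highest ranks of the pooled list. A gene absent from a list had no region among its 30000, which is not a signal of 0.

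Insulin-like peptides act on the receptor DAF-2, which activates the phosphoinositide 3-kinase AGE-1. The lipid made by AGE-1 activates AKT-1, which keeps the FOXO transcription factor DAF-16 out of the nucleus, and the phosphatase DAF-18 removes that lipid. AMPK senses low energy through its γ subunit and comprises a catalytic α subunit (AAK-1 or AAK-2), a β scaffold (such as AAKB-1) and a γ subunit (such as AAKG-1). EGL-4 is a cGMP-dependent protein kinase that sets sensory and satiety states. In newly hatched larvae without food these branches control developmental arrest and survival, and later the choice of the dauer larva.

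The following sequences surround summits on which the account turns, 100 bp on each side, from the RefSeq copy of assembly WBcel235 (ce11), read 5′ to 3′ on the strand of the gene. The first is the highest region of the 10 genes, and its capitals mark coding sequence of an aakg-1 transcript that starts inside the gene, beginning at the ATG with which that annotated transcript starts.
aakg-1, chrIII:12562891-12563091, minus strand: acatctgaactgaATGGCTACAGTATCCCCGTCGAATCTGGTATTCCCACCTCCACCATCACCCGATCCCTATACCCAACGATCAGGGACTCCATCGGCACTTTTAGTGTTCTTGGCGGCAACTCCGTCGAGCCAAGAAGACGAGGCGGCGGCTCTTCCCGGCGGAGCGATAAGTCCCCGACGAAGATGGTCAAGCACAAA
In egl-4 all 201 bases are coding sequence, and capitals mark the summit, which was the same base in all 3 lists, with 10 bases on each side.
egl-4, chrIV:1877567-1877767, plus strand: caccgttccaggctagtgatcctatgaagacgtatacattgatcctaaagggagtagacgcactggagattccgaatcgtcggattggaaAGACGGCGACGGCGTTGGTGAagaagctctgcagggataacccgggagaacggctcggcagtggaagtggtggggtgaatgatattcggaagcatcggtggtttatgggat
The daf-2 region is shown because it lies in an intron and inside the non-coding RNA gene linc-143, and capitals again mark the summit with 10 bases on each side.
daf-2, chrIII:3036719-3036919, minus strand: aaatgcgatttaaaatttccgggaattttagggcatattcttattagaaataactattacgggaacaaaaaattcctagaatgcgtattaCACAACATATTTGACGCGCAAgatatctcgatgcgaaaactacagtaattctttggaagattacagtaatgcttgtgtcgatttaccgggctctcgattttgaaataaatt
The highest region of aak-2 lies at an exon boundary, and capitals mark the coding exon.
aak-2, chrX:16800704-16800904, plus strand: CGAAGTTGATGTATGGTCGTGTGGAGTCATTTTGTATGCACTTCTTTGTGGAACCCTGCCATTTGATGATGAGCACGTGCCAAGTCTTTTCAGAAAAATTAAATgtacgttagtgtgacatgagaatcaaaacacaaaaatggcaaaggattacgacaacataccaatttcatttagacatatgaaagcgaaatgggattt
The GC content was 55.7% in the aakg-1 window and 52.7% in that of egl-4, against 37.3% in that of aak-2 and 33.3% in that of daf-2. Sequence of daf-16 is not printed here.

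All 10 genes had a summit in the pooled list, as did 68.8% of all protein-coding genes, so presence in the list does not set these genes apart. In replicate 1 all 10 genes had a summit (69.1% of all genes), and in replicate 2 all but aak-1, or 9, did (68.6% of all genes). A pooled summit with a summit of each replicate within 200 bp was present in 9 of the 10 genes, again all but aak-1, and in 42.9% of all genes. The 10 genes have a median length of 7519.5 bp, against 2027 bp for all protein-coding genes. For these counts a share over genes of like length was not computed. A summit among the top 1000 of the pooled list was present in 4 of the 10 genes, daf-2, daf-16, aakg-1 and egl-4, and in 5.65% of all genes. These 4 are the genes of the set that exceed 20000 bp, and of the 198 protein-coding genes of at least that length 28.3% had a top 1000 summit. An IDR region was present in 3 of them, daf-16, aakg-1 and egl-4, in 1.25% of all genes and in 7.07% of those of at least 20000 bp. The comparison with long genes was chosen after the values had been seen.

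**Figure D1:**
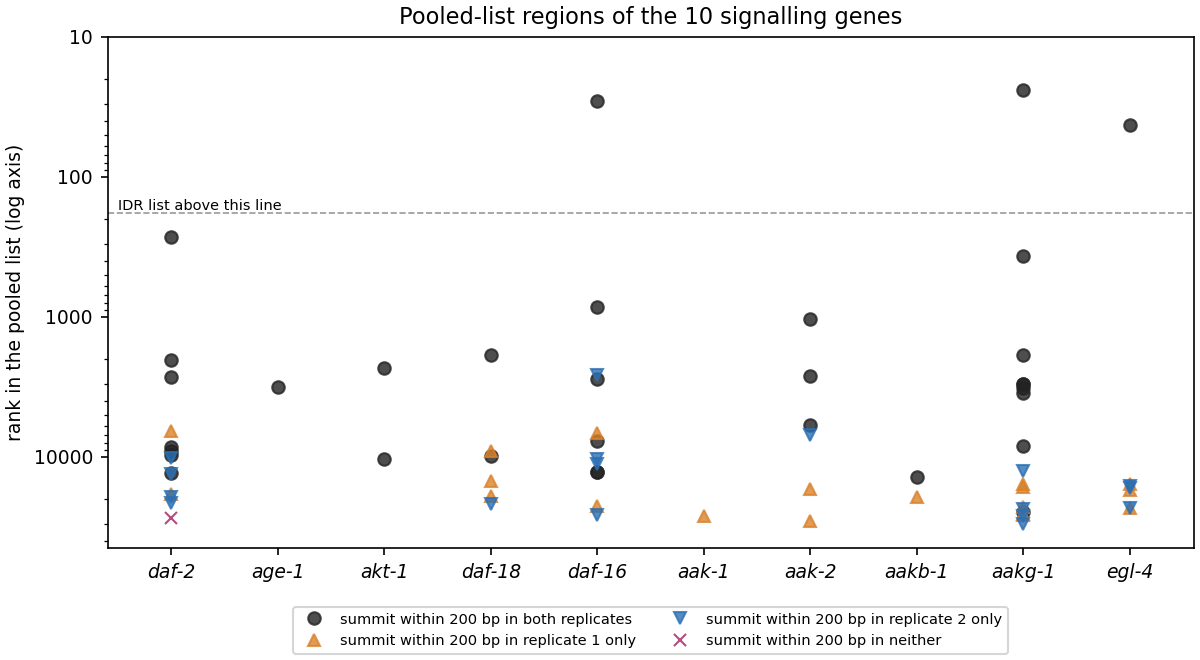
Rank of each of the 69 pooled-list regions (log axis, highest signal at the top) by gene, with the marker showing whether each replicate had a summit within 200 bp. 3 regions lie above the dashed line that bounds the IDR list, in daf-16, aakg-1 and egl-4, and aak-1 has a single region near the foot of the list.

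The 4 long genes held 51 of the 69 pooled summits (73.9%) and make up 81.6% of the summed gene length, and the other 6 genes held 18. Single genes differed in density, which ran in the pooled list from 1.08 summits per 10 kb in age-1, with 1 summit, to 9.0 in daf-18. In replicate 1 the ends were aakb-1 (1.95) and daf-18 (7.5), and in replicate 2 aak-1 (0.0) and daf-18 (6.0). In the replicates age-1 had 3.25 and 2.17. The daf-18 densities count summits that lie inside a neighbouring gene. Genes of like length differed too: aakg-1 (36738 bp) had 18 summits, or 4.71 per 10 kb, and egl-4 (32526 bp) had 7, or 2.06 per 10 kb. The density was 3.66 pooled summits per 10 kb over the 10 genes and their upstream sequence, 3.13 over all protein-coding genes and 2.99 over the genome. It was 3.66 for the 10 genes in replicate 1, against 3.14 for all genes, and 3.34 in replicate 2, against 3.1 for all genes.

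daf-2 (WBGene00000898, chrIII:2994514-3040846, minus strand), the insulin/IGF receptor gene and the longest of the 10 at 46333 bp, had 14 pooled, 12 replicate 1 and 14 replicate 2 summits. Its highest region had its summit at 3036819 in intron 1 of 18, 4027 bp inside the gene, at rank 268 (signal 104). The same place stood at rank 1858 in replicate 1 (signal 42.3, summit 2 bp away) and at rank 128 in replicate 2 (signal 63.8, summit 2 bp away on the other side). The position was nearly the same in the replicates, while the region stood much nearer the top in replicate 2. Intron 1 also holds linc-143, a long non-coding RNA gene on the same strand (WBGene00219761, chrIII:3035541-3037543), and the summit lies in it, so the region cannot be given to daf-2 alone. Its window is 75.1% soft-masked as repeat in the reference, although 2.92% of its 31-base words recur in the genome.

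The next daf-2 regions were at 3027113 in intron 2 (rank 2050, with 3483 in replicate 1 and 3605 in replicate 2) and at 3021691 in intron 3 (rank 2692). The first of these had like ranks in the replicates. The second stood at 1364 in replicate 1 and at 26009 in replicate 2. Of the 14 pooled summits 9 were in introns, 4 in coding exons and 1 in the 3′ UTR, and 7 were matched in both replicates. The 3′ UTR summit, at 2995698 (rank 27393), was matched in neither replicate, which no other summit of the 10 genes showed. The replicates had summits just upstream of daf-2 at 3040874 (replicate 1, rank 27589) and 3041300 (replicate 2, rank 20131), and the pooled list had none within 200 bp of either.

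age-1 (WBGene00000090, chrII:11519328-11527054, minus strand), which encodes the catalytic subunit of phosphoinositide 3-kinase, had 1 pooled summit, at 11524815 in coding exon 4 of 9, an exon of 1 of its 2 transcripts. It stood at rank 3175 (signal 74.0), at 4968 in replicate 1 and at 7408 in replicate 2, with the replicate 2 summit 1 bp away. Replicate 1 had 2 further age-1 summits, at ranks 12413 and 14038, and replicate 2 had 1, at rank 26262, all in coding exons and without a pooled counterpart.

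akt-1 (WBGene00000102, chrV:10248905-10252845, plus strand), encoding the Akt kinase that phosphorylates DAF-16, had 2 pooled summits, both matched in both replicates. The higher lay at its 5′ end, at 10248910 in the 5′ UTR and 5 bp from the annotated end, at rank 2329 (signal 77.7), with rank 1970 in replicate 1 and 5694 in replicate 2. The other was in coding exon 6 of 9, at rank 10296.

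daf-18 (WBGene00000913, chrIV:420011-425177, minus strand) encodes the phosphatase that opposes AGE-1, and with 6 summits had 9.0 per 10 kb with its upstream sequence, the highest density of the 10 genes. Its highest pooled summit, at 425172, was also at the 5′ end, 5 bp inside the 5′ UTR, at rank 1887 (signal 80.2), with rank 3031 in replicate 1 and 2271 in replicate 2. Replicate 2 had its best daf-18 summit elsewhere, at 424880 in coding exon 2 of 7, at rank 614 (signal 53.0), and no pooled summit lay within 200 bp of it. The 2 upstream summits, at 426204 and 426648, lie inside the neighbouring gene garr-1. They count towards the density of 9.0, which was not computed without them. The second of them was 1471 bp from daf-18, the nearest to the 1500 bp limit on its inner side. Just outside that limit lay an aak-2 summit at 1540 bp (rank 22061) and an aakg-1 summit at 1606 bp (rank 11535).

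daf-16 (WBGene00000912, chrI:10750498-10776703, plus strand), the FOXO gene on which the insulin pathway acts, has 11 annotated transcripts with several internal starts, and had 12 pooled summits. The highest, at 10763183, was in the IDR list at rank 29 (signal 132). It stood at rank 4 in replicate 1 (signal 82.9) and at rank 1588 in replicate 2 (signal 46.8), with the 2 replicate summits 6 bp to either side. In replicate 2 alone the region thus stands outside the top 1000. The summit lies 12685 bp from the 5′ end of the gene but 80 bp inside R13H8.1b.1, in whose first exon of 10 it is coding. That exon is used by 2 of the 11 transcripts, and in the longest coding transcript the same place is intron 4 of 11.

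The second daf-16 region, at 10772065 (rank 853, signal 89.7), was again in a first coding exon, that of R13H8.1a.1, which is used by 1 of the 11 transcripts, and 557 bp from its start. Here the replicates had closer ranks, 1239 in replicate 1 and 714 in replicate 2. Of the remaining regions the next were in intron 4, at 10761179 (rank 2583, with no replicate 1 summit within 200 bp) and at 10759572 (rank 2802, with 1834 in replicate 1 and 11736 in replicate 2). Replicate 2 had 2 summits within 200 bp of the first of these, the nearer at rank 4037 and the other, at 10761039, at rank 852 (signal 50.8). The replicates ranked these intron regions differently. In all, 8 of the 12 summits were in introns, 3 in coding exons and 1 in the 3′ UTR, and 6 were matched in both replicates.

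**Figure D2:**
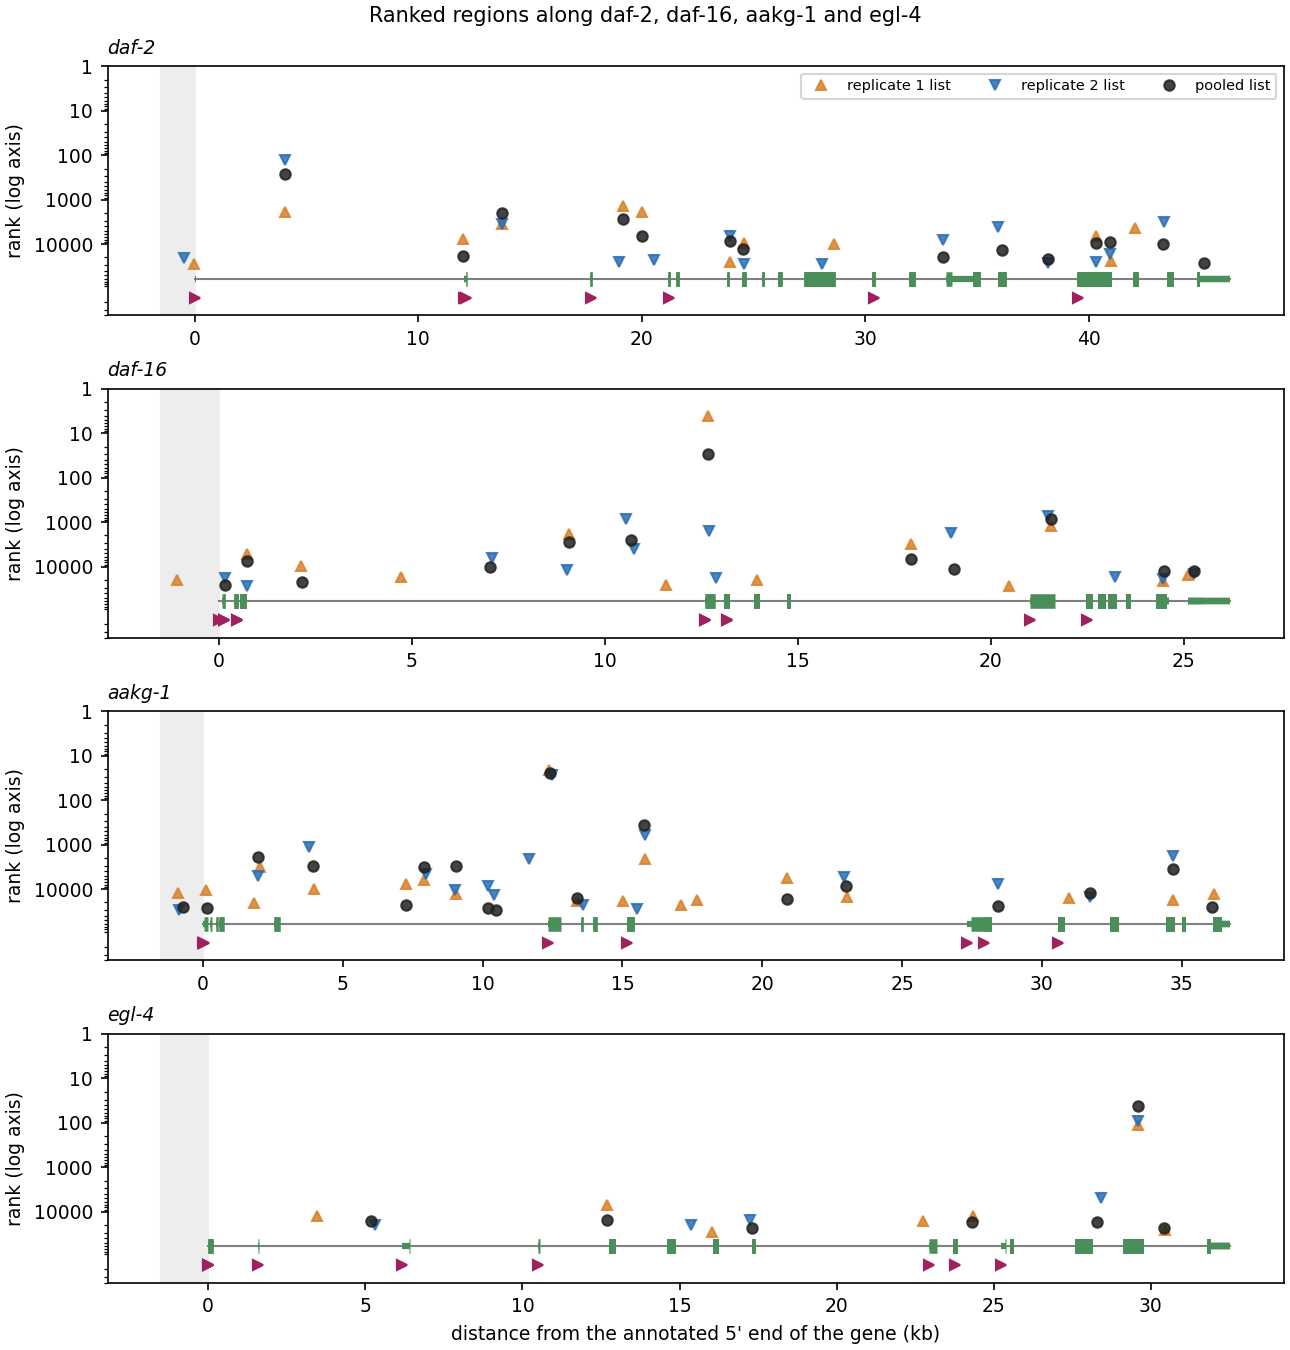
Summits in each list along daf-2, daf-16, aakg-1 and egl-4, plotted by distance from the 5′ end of the gene (kb) and rank (log axis, highest signal at the top). Green blocks are exons (thick where coding), purple arrowheads are annotated transcript starts, and grey shading is the 1500 bp upstream. In daf-16 and aakg-1 the highest region stands beside an internal transcript start, 80 bp and 87 bp away, and in egl-4 it stands near the 3′ end.

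The 4 AMPK genes differed widely. aak-1 (WBGene00019801, chrIII:8756990-8761090, minus strand), a catalytic α subunit gene, had the lowest standing of the 10 in the pooled list. Its pooled summit at 8762148, 1058 bp upstream, stood at rank 26367 (signal 44.4), with rank 12636 in replicate 1, and replicate 2 had no summit in aak-1 or its upstream sequence. No aak-1 summit was matched in both replicates.

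aak-2 (WBGene00020142, chrX:16796087-16803398, plus strand), the α subunit gene known for roles in lifespan and in L1 and dauer survival, had 6 pooled summits, 3 in introns and 3 in coding exons common to all 3 transcripts. The highest, at 16800804 in coding exon 4 of 10, stood at rank 1042 (signal 87.3), just outside the top 1000, with rank 5026 in replicate 1 and 1539 in replicate 2. The others in coding exons stood at rank 2657 (9756 in replicate 1, 1541 in replicate 2) and at rank 5909 (3030 in replicate 1, 10173 in replicate 2). All 3 coding-exon summits were matched in both replicates, and each of the 3 intron summits in a single replicate. The classes are those of the pooled summits. For the highest, at the exon boundary, the matching replicate 2 summit was 6 bp away and in intron 4.

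aakb-1 (WBGene00010115, chrX:13755769-13759391, plus strand), a β subunit gene, had 2 pooled summits near its 5′ end. The one 154 bp upstream stood at rank 13963, with 12727 in replicate 1 and 10293 in replicate 2. The one in coding exon 1 stood at rank 19487, and the replicate 1 region that matched it was the same that matched the first. None of the aakb-1 summits was among the first 10000 of any list.

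aakg-1 (WBGene00013732, chrIII:12538664-12575401, minus strand, 36738 bp), a γ subunit gene, had the most regions of the 10, with 18 pooled, 19 replicate 1 and 16 replicate 2 summits, and it had the highest of them. That region, at 12562991, was in the IDR list at rank 24 (signal 135). It stood at rank 21 in replicate 1 (signal 71.3) and at rank 27 in replicate 2 (signal 75.6), so its place near the top did not hang on either replicate. The replicate summits lay 29 bp and 69 bp from the pooled one, on opposite sides. The summit is 12410 bp inside the gene and 87 bp inside Y111B2A.8d.1, in the first coding exon of 10 of that transcript, which is 1 of 7, and in intron 5 of 13 of the longest. This is the sequence printed first above, and none of its 31-base words recurs in the genome.

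The second aakg-1 region, at 12559628 in intron 8 of 13, stood at rank 369 (signal 99.4), with 2105 in replicate 1 and 617 in replicate 2. Of the words of 31 bases around it 84.2% recur elsewhere in the genome, the highest share among the 69 summits, and the part of reads from other copies in its signal was not tested. 5 further aakg-1 regions stood at ranks 1877 to 3494. They include 12571467 (rank 3008), which stood at 10018 in replicate 1 and 1116 in replicate 2, and 12540715 (rank 3494), coding in all 7 transcripts, which stood at 17198 in replicate 1 and 1800 in replicate 2. Of the 18 pooled summits 14 were in introns, 3 in coding exons and 1 upstream, and 9 were matched in both replicates.

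egl-4 (WBGene00001173, chrIV:1848071-1880596, plus strand, 32526 bp), the cGMP-dependent protein kinase gene, had 1 high region and otherwise low ones. The high region, at 1877667, was in the IDR list at rank 43 (signal 128). It stood at rank 113 in replicate 1 (signal 60.4) and rank 92 in replicate 2 (signal 66.0), with the summit at the same base in all 3 lists. It lies in coding exon 9 of 10, used by 8 of 9 transcripts, 29596 bp from the 5′ end of the gene and 4357 bp from the nearest transcript start, so it is the IDR region of the 3 that is far from any annotated start of its gene. The other 6 pooled summits were all in introns, at ranks 15657 to 23167, and each was found in a single replicate. Replicate 2 had a summit at rank 5049 for the one at 1876361, and no replicate 1 summit lay within 200 bp of it.

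**Figure D3:**
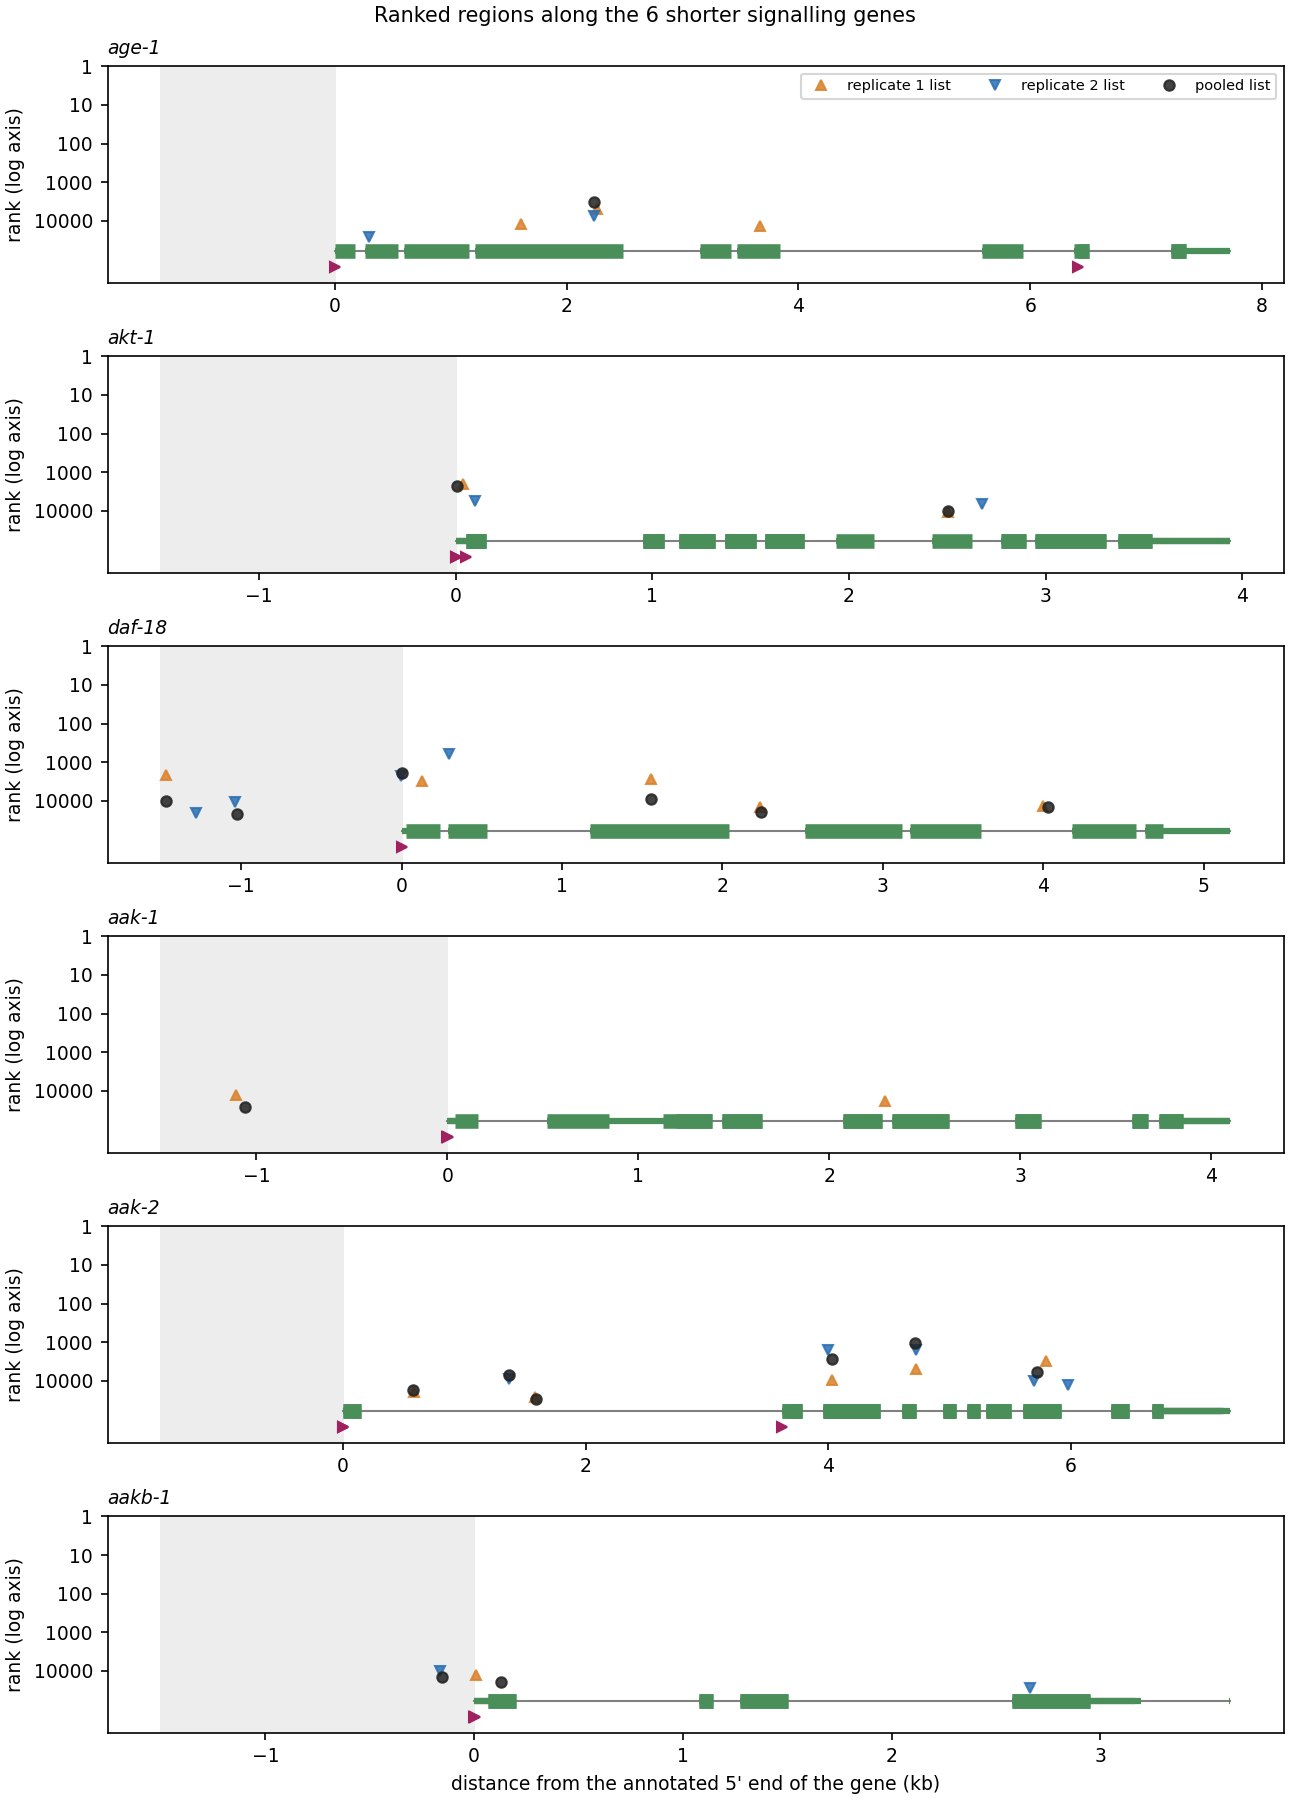
Summits in each list along age-1, akt-1, daf-18, aak-1, aak-2 and aakb-1, plotted as for the long genes, by distance from the 5′ end (kb) and rank (log axis). The highest pooled regions of akt-1 and daf-18 stand at the 5′ end, at ranks 2329 and 1887, those of age-1 and aak-2 inside the gene at ranks 3175 and 1042, and those of aak-1 and aakb-1 upstream at ranks 26367 and 13963.

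The position of the highest region thus took different forms among the 10 genes. It was in a coding exon in age-1, daf-16, aak-2, aakg-1 and egl-4, in the 5′ UTR in akt-1 and daf-18, in an intron in daf-2, and upstream in aak-1 and aakb-1. Of all 69 pooled summits 42 were in introns (60.9%), 18 in coding exons (26.1%), 5 upstream (7.25%), 2 in 5′ UTRs and 2 in 3′ UTRs. Over all protein-coding genes and their upstream sequence 38.6% of summits were in coding exons. Introns make up 138466 bp of the 10 genes, against 27279 bp of coding exons, and per length the order was the other way. Coding exons of the 10 genes had 6.6 summits per 10 kb, against 3.85 in coding exons of all genes, and their introns had 3.03, against 2.83 in introns of all genes. Of the 18 coding-exon summits 7 were coding in every annotated transcript of their gene. Each class is that of the summit base alone, so it can change with a small shift. At daf-2 2999906, akt-1 10251410 and aak-2 16800804 the matching summit of 1 replicate lay in an intron.

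**Figure D4:**
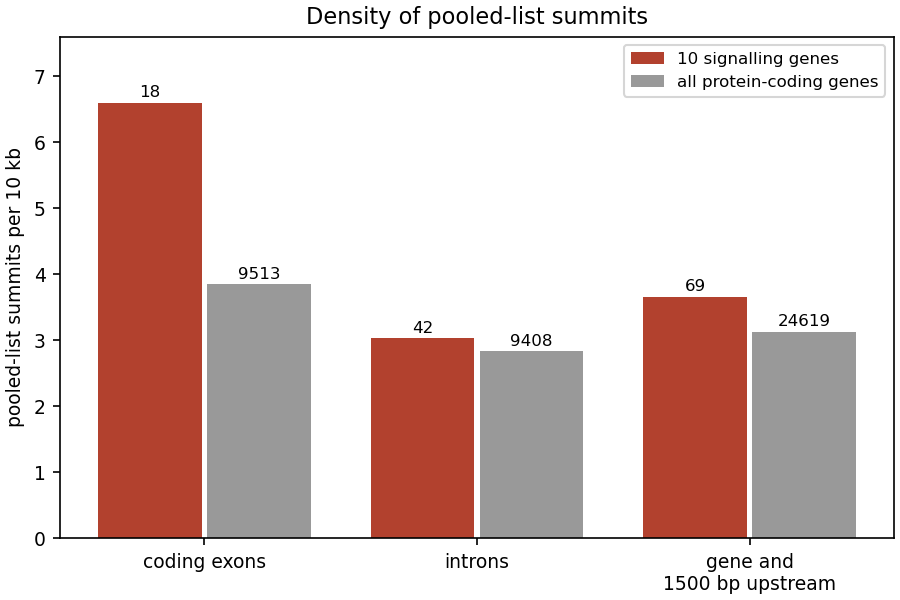
Pooled-list summits per 10 kb (bars from 0, number of summits above each bar) in coding exons, introns and whole windows of the 10 signalling genes (left of each pair) and of all protein-coding genes (right). Coding exons stand at 6.6 in the 10 genes and 3.85 in all genes, and introns at 3.03 and 2.83. The bars have no error, since each is a single count over a single length.

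The coding-exon summits also stood higher in the list, at a median rank of 7529, against 15172.5 for the intron summits of the same genes, with 11241 for all 69. Their windows were richer in G and C, at 45.2% ± 6.28 (SD, n = 18 summits), against 35.7% ± 7.2 (SD, n = 42 summits) in introns. Over all 69 summits GC content was 38.9% ± 8.37 (SD), and over the 30000 pooled regions it was 35.7% ± 7.73 (SD). GC content thus differed with position in these genes, and its part in the ranks was not tested. Ranks and GC content by position were not computed over all pooled regions, so neither difference can be called particular to these genes.

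Internal transcript starts, over 500 bp from the 5′ end of the gene, are annotated for 6 of the 10 genes, 23 starts in all, and for 14.7% of all protein-coding genes. Of the 64 pooled summits inside the 10 genes 3 lay within 200 bp of such a start, namely the IDR regions of daf-16 and aakg-1 and a daf-2 summit at 3028855 (rank 18570), 55 bp before the start of Y55D5A.5a.1. Over all genes this held for 3.37% of pooled summits and 4.7% of IDR regions inside a gene. Those shares include genes without an internal start, and shares over the genes that have one were not computed. The 6 internal starts of egl-4 had no pooled summit that close. This look was chosen after the positions had been seen.

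Over all ranks together the replicates matched at these genes about as often as elsewhere. Past rank 10000 the matched shares were lower, but on small counts (5 of 22 and 1 of 16), and the difference was not tested. Of the 69 pooled summits 32 (46.4%) had a summit of both replicates within 200 bp, against 43.5% of all pooled regions. Replicate 1 alone matched 19 (27.5%, against 24.8%), replicate 2 alone matched 17 (24.6%, against 25.8%), and neither matched 1 (1.45%, against 5.9%). Both replicates entered the pooled list, so a match is not independent of it. By rank, both replicates matched 6 of 6 summits among ranks 1 to 1000 (97.9% of all regions of those ranks), 20 of 25 among ranks 1001 to 10000 (80.0%, against 78.4%), 5 of 22 among ranks 10001 to 20000 (22.7%, against 37.8%) and 1 of 16 among ranks 20001 to 30000 (6.25%, against 12.2%). Seen from the replicates, 33 of 69 summits of replicate 1 had a replicate 2 summit within 200 bp, and 34 of 63 of replicate 2 had one of replicate 1.

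A match required a summit of each replicate within 200 bp of the pooled one, so the distance between replicate summits was bounded in advance. It had a median of 39 bp over the 32 matched summits, and the median over all matched pooled regions was not computed. The replicate ranks were within 3 times of each other in 18 of the 32 and over 10 times apart in 3. The rank nearer the top was that of replicate 2 in 18 and of replicate 1 in 14. Those in the top 1000 of both replicates numbered 2, the IDR regions of aakg-1 and egl-4. Replicate 1 had 3 summits of the 10 genes in its own top 1000, in daf-16, aakg-1 and egl-4, and replicate 2 had 7, in these 3 genes and in daf-2 and daf-18.

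**Figure D5:**
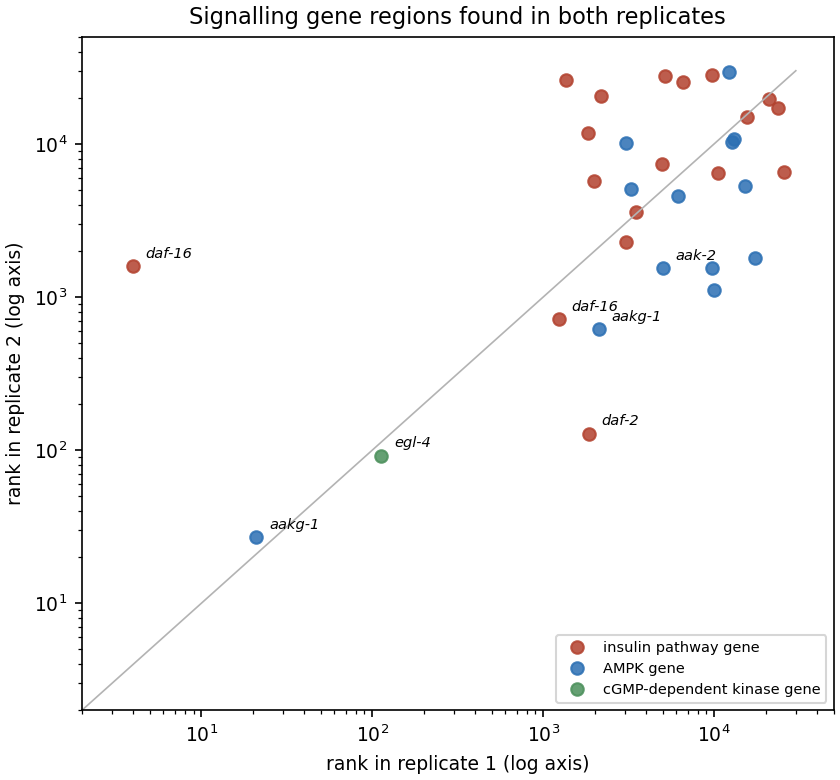
Rank in replicate 1 against rank in replicate 2 (log axes) for the 32 pooled summits matched in both replicates, coloured by branch, with the line of equal rank and the names of the 7 highest pooled regions. The highest aakg-1 and egl-4 regions lie near the line, at 21 and 27 and at 113 and 92, while that of daf-16 (4 and 1588) and that of daf-2 (1858 and 128) lie far to opposite sides.

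A pair of motifs was searched on both strands within 100 bp of each summit. TAATTA is a palindrome that many homeodomain proteins bind, and TGTTTAC is the core to which DAF-16 and other forkhead proteins bind. The letters of the motifs do not overlap each other. TAATTA was present at 2 of 69 summits (2.9%), against 10.4% of all pooled regions, at aakg-1 12573426 (rank 1877) and at daf-16 10768420 (rank 6783). TGTTTAC was present at 2 (2.9%), against 2.47%, at daf-2 3028855 and at egl-4 1878499. Neither motif was within 100 bp of the highest region of any of the 10 genes. The aakg-1 match is shown with TAATTA in capitals, on the strand of the gene, 95 bp from its summit.
aakg-1 intron 4, chrIII:12573304-12573353, minus strand: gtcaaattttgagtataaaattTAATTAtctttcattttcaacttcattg
All of the window around that summit is soft-masked as repeat, and 36.3% of its 31-base words recur in the genome. Over the 69 summits 12 had any recurring word (17.4%), against 10.6% of all pooled regions, and the summit at aakg-1 12559628 was the 1 with most of its words recurring (1.45%, against 0.713% of all pooled regions).

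Other genes of the same pathways were taken from 8 lists with 117 names, of which 116 matched the annotation. Of these 116 genes 82 had a pooled summit (70.7%, against 68.8% of all protein-coding genes) and 64 had one matched in both replicates (42.9% of all genes). In the top 1000 12 of them had a summit (5.65% of all genes), and 0 had an IDR region (1.25% of all genes). The 10 genes have a median length of 7519.5 bp, against 2824 bp for these 116, of which 4 exceed 20000 bp. The lists are described by counts, and no list was tested.

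The ligands of DAF-2 are encoded by short genes. Of 39 insulin-like peptide genes, with a median length of 655 bp, against 2027 bp for all protein-coding genes, 11 had a pooled summit (28.2%, against 68.8% of all genes) and 0 reached the top 1000 (5.65% of all genes). A share over genes of like length was not computed. The highest were ins-21 (rank 4619, in the 5′ UTR), ins-34 (rank 5185) and ins-36 (rank 8620). Of 7 further kinases and adaptors of the insulin pathway, with a median length of 7281 bp, 6 had a summit (68.8% of all genes). akt-2, the second Akt gene, had the highest, 1156 bp upstream at rank 273 (signal 104), with 416 in replicate 1 and 846 in replicate 2. It stood above both summits of akt-1. pdk-1, the kinase that activates Akt, stood at rank 8201, with 11147 in replicate 2 and no replicate 1 summit within 200 bp. None of its 5 pooled summits was matched in both replicates. The insulin receptor substrate gene ist-1 stood at rank 8334, with 20262 in replicate 1 and 9891 in replicate 2. aap-1, the adaptor subunit that partners AGE-1, had no summit.

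Among 17 partners and regulators of DAF-16, with a median length of 2912 bp against 2027 bp for all genes, 14 had a summit (68.8% of all genes). The 14-3-3 gene ftt-2, whose protein holds DAF-16 in the cytoplasm, had one in a coding exon at rank 313 (signal 101), with 1334 in replicate 1 and 368 in replicate 2. rle-1, an E3 ubiquitin ligase gene, stood at rank 1384. The other 14-3-3 gene, par-5, stood at rank 3178 with a summit upstream that lies inside M117.3, at rank 292 in replicate 2 and without a replicate 1 summit within 200 bp.

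All 12 further AMPK subunit and upstream genes had a summit (68.8% of all genes) and 0 reached the top 1000 (5.65% of all genes). Their median length was 4512.5 bp, against 2027 bp for all genes. The second β subunit gene, aakb-2, had a coding-exon region at rank 1174 (signal 85.9), with 3281 in replicate 1 and 2116 in replicate 2, and so stood above both summits of aakb-1. flcn-1, the folliculin gene, stood at rank 3222 and the γ subunit gene aakg-4 at rank 3346. Of 8 TOR complex genes, with a median length of 5007 bp, 7 had a summit (68.8% of all genes). The highest were the kinase gene let-363 (rank 1686), the S6 kinase gene rsks-1 (rank 3280) and daf-15, the raptor gene (rank 3674).

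All 15 cGMP pathway genes around EGL-4 had a summit (68.8% of all genes), and 4 reached the top 1000 (5.65% of all genes). Their median length was 7830 bp, against 2027 bp for all genes, and 2 exceed 20000 bp, a length at which 28.3% of genes reach the top 1000. mef-2, a MADS-box transcription factor gene, had one 953 bp upstream at rank 312 (signal 102), with 415 in replicate 1 and 380 in replicate 2. The phosphodiesterase gene pde-6 stood at rank 469, with 125 in replicate 1 and 4635 in replicate 2, and pde-3 at rank 683, with 766 in replicate 1 and 1878 in replicate 2.

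Of 7 dauer TGF-beta genes 6 had a summit (68.8% of all genes) and 2 reached the top 1000 (5.65% of all genes). Their median length was 5666 bp, against 2027 bp for all genes. daf-5, a Ski/Sno family gene, stood at rank 240 (signal 105), with 2093 in replicate 1 and 189 in replicate 2. The receptor gene daf-4 stood at rank 676, with 7923 in replicate 1 and 546 in replicate 2. Both thus stood in the top 1000 of replicate 2 and not of replicate 1, and the receptor gene daf-1 stood at rank 1852 in the pooled list.

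All 11 other genes of starvation and L1 arrest, with a median length of 7266 bp, had a summit (68.8% of all genes) and 4 reached the top 1000 (5.65% of all genes). Of these 11 genes 2 exceed 20000 bp, a length at which 28.3% of genes reach the top 1000. The Gβ gene gpb-2 stood at rank 482, with 2645 in replicate 1 and 326 in replicate 2. The nuclear receptor gene nhr-49 stood at rank 604, with 2393 in replicate 1 and 1153 in replicate 2. The Mediator subunit gene mdt-15 stood at rank 653, with 165 in replicate 1 and 3348 in replicate 2. None of these 3 was in the top 1000 of both replicates.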

How the data were processed

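ChIP-seq of ALR-1-GFP in starved L1 larvae gave 4 region lists, 1 for each of 2 biological replicates, 1 for the pooled replicates and the IDR list. Per the text deposited with the samples, the first 3 lists were made from alignments against a control that was not analysed here, and the IDR list was derived from them. The labels name ce11 as the build. The sources used here give neither the aligner and peak caller nor the threshold for IDR. The deposited signal of each region is the authors' value and was used to rank regions within a list. Depth is unknown from such lists.

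From the lists, summits were assigned to genes of Ensembl release 115 with Python 3.11.15, numpy 2.4.6, pandas 2.3.3 and matplotlib 3.10.9. Windows reached 1500 bp upstream, replicate summits matched within 200 bp, and motifs and GC were read within 100 bp. Assignment and matching were tested on simulated data. The genes, the lists and the rule to name up to 3 genes per list by rank were chosen with earlier results of these data known. No statistical test was run: counts stand beside those over all genes or regions. Alternatives covered windows, matching distance, list length and each replicate alone.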

Additional observations from a re-analysis of the deposited data

How the results depend on the processing

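Of 60 values recomputed under other settings, 52 stayed within 1.5 times the reported count and 8 did not. With the 10000 highest-ranked regions of each list, the 10 genes had 31 pooled summits, 14 of them matched in both replicates, and 0 with TGTTTAC; fewer regions were then available. With 3000 bp upstream, 4 summits held TAATTA. Within 50 bp of the summit, 1 held TAATTA and 0 held TGTTTAC, and over the whole deposited region 4 held TAATTA. Each of these motif settings searched more or less sequence.

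With each replicate left out in turn, the counts over the 10 genes were 63 to 69 summits, 9 to 10 genes with a summit, 3 to 5 genes with a top 1000 summit, 19 to 22 coding-exon summits, 2 to 3 with TAATTA and 1 to 2 with TGTTTAC. No paired analysis was possible because there is 1 group. Matches in both replicates need both lists, so they have no value without one of them. Depth is unknown here, so its part in the ranks was not tested, and regions beyond the 30000 of each list were not seen.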
